A study of Mus musculus with 18 samples.

Results

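The genes described here are 9 genes of the cytotoxic granule and of target cell killing: Gzma, Gzmb, Gzmk, Gzmm, Prf1, Nkg7, Ctsw, Fasl and Ccl5. They were chosen by symbol from a deposited table of 23951 gene symbols, and all 9 were found. RNA was sequenced from T cells of C57BL/6 mice that had been sorted as CD4+CD25-CD62Lhi cells, a naive phenotype, in 18 libraries of 6 genotypes with 3 libraries each. WT mice were the common control. In cluster Tg mice the whole miR-23 cluster, which encodes miR-23, miR-27 and miR-24, was over-expressed in T cells, and a single member was over-expressed in each of miR-27 Tg, miR-24 Tg and miR-23 Tg mice. DKO mice had a T cell-restricted deletion of the miR-23a and miR-23b clusters. The labels name neither the promoter of the transgenes nor the Cre, and give no age. Whether the libraries of a genotype come from different mice is not said, and the p-values therefore reflect only how much these libraries vary, which may be technical.

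Killer lymphocytes store granzymes, which are serine proteases, in secretory granules together with perforin (Prf1), which opens the membrane of the target cell to them. NKG7 is a granule membrane protein that takes part in granule release, and cathepsin W (Ctsw) is a cysteine protease found mainly in CD8 T cells and NK cells. Fas ligand (Fasl) kills by engaging the death receptor Fas, and CCL5 is a chemokine that cytotoxic and memory T cells release. CD8 T cells, NK cells and antigen-experienced T cells are the usual sources of these products, and resting naive CD4 T cells make little of most of them.

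The mature microRNAs over-expressed or deleted in these mice are printed because the genotypes differ by them, with the seed (bases 2 to 8) in capitals, from RefSeq (GRCm38.p6). The seeds of miR-23 and miR-27 differ from each other, and the a and b forms of miR-27 share theirs. The sequence of miR-23b-3p is not printed.
mmu-miR-23a-3p: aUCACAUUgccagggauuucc
mmu-miR-24-3p: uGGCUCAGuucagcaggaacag
mmu-miR-27a-3p: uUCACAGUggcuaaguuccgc
mmu-miR-27b-3p: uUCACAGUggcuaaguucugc

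The annotated 3′ UTRs of the 9 genes (GENCODE M21, GRCm38) are short, from 65 bases in Gzma to 887 in Fasl, against a median of 934 among tested genes. They were searched on the transcript strand for a match to seed bases 2 to 8, or to bases 2 to 7 followed by A: AATGTGA or ATGTGAA for miR-23, CTGAGCC or TGAGCCA for miR-24, and ACTGTGA or CTGTGAA for miR-27. The UTR of Fasl held 3 matches for miR-24 and 0 for miR-23 and miR-27. The other 8 UTRs held 0 matches for each of the 3 miRNAs. Among tested genes with a UTR, 22.0% had a match for miR-23, 23.3% for miR-24 and 25.7% for miR-27. The 3 matches in Fasl are shown with the bases around them because they are the matches found among the 9 UTRs, with the matching letters in capitals. They lie on the minus strand of chromosome 1 at chr1:161781453-161781479, chr1:161781360-161781386 and chr1:161781053-161781079 (GRCm38).
Fasl match at UTR base 107: taagactacaTGAGCCAcaaagacctc
Fasl match at UTR base 200: gcctgcatcaTGAGCCAgatggaagga
Fasl match at UTR base 507: ctaatgttttCTGAGCCgacctttgat

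Values are in RPKM, reads per kilobase of transcript scaled to the size of the library, and can be compared between genes because they are per length. Fold changes are log2 differences of log2(RPKM + 1), which understates changes of low genes, and a gene is called at a Benjamini-Hochberg adjusted p under 0.05 from limma over 11099 tested genes. The hairpins of the cluster were high in the transgenics that carry them and low, with some reads, in DKO. Mir24-2 lay between 18.92 and 45.99 RPKM in WT, between 16950 and 70490 with the cluster transgene and between 13890 and 49240 in miR-24 Tg, and was listed at 0 in all DKO libraries. Mir27a lay between 27980 and 234900 RPKM in miR-27 Tg against 95.62 to 193.7 in WT, and Mir23a between 64020 and 74240 in miR-23 Tg against 0 to 279.5 in WT. In DKO replicates 1 to 3 Mir27a had 36.32, 39.54 and 0 RPKM, below WT, and Mir23a 0, 0 and 76.11, of which the last lies within the WT range, so that Mir23a alone does not separate DKO from WT. Between 10103 and 10615 genes reached 1 RPKM per library, and the depth relative to WT replicate 1 ran from 0.634 to 1.47, lowest in miR-27 Tg replicate 3. Cd4 lay between 334.2 and 617.2 RPKM in all libraries. Replicate 3 of miR-27 Tg, at 123, and replicate 3 of DKO, at 51.3, lay far from the other 16 libraries (-20.8 to -0.317) on principal component 1 (24.8% of variance). Reads of the very long Lyst mRNA, named here after its values were seen, numbered 40 in miR-27 Tg replicate 3 and 1495 in DKO replicate 3, against 4282 to 9517 in the others. The part of RNA quality in the results was not tested, and the calls of members and of list genes with miR-27 Tg or DKO are also given without these libraries. A pair of the 3 miR-23 Tg columns carries the same replicate name in the table, and they are called column 3 and column 4.

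In WT the 9 genes were unequal. Ctsw stood at 57.93 ± 7.26 RPKM (SD, n = 3), above 85% of tested genes, and Prf1 at 14.55 ± 1.91, above 48.2%. Fasl stood at 6.55 ± 0.555 RPKM, and the other 6 genes lay below 2.4: Nkg7 at 2.352, Ccl5 at 1.933, Gzmm at 1.544, Gzma at 0.942, Gzmk at 0.249 and Gzmb at 0.184. Ctsw alone made up 67.0% of the summed RPKM of the 9 genes in WT (range 63.1% to 69.7%). For 8 of the 9 genes, all but Fasl, every value was a whole multiple of the value of 1 read, to within 0.0025 reads, so the reads behind it could be recovered. Ctsw rested on 180 to 2846 reads per library, while Gzmk had 3 or 4 in each WT library and Gzmb 2 to 9.

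The genes then fell into a set that was higher in 3 of the transgenic genotypes (Gzmk, Nkg7 and Ccl5), a set that was lower in cluster Tg or miR-27 Tg (Prf1, Ctsw and Fasl), and granzymes with no call in that fit (Gzma, Gzmm). Gzmb did not reach 1 RPKM in 3 libraries and was outside the fit. Gzmk passed this filter only through the transgenic libraries. Over the 6 genotypes, the F test called 6 of 8 tested members, where 19% of all tested genes were called. These sets were named after the values were seen and carry no test of their own. Groups of 3 libraries that do not overlap were common among all tested genes: 42.8% in cluster Tg against WT, 33.5% in miR-24 Tg, 27.3% in miR-27 Tg, 28.9% in miR-23 Tg and 4.96% in DKO. These shares were taken only against WT and not between other pairs of genotypes.

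**Figure D1:**
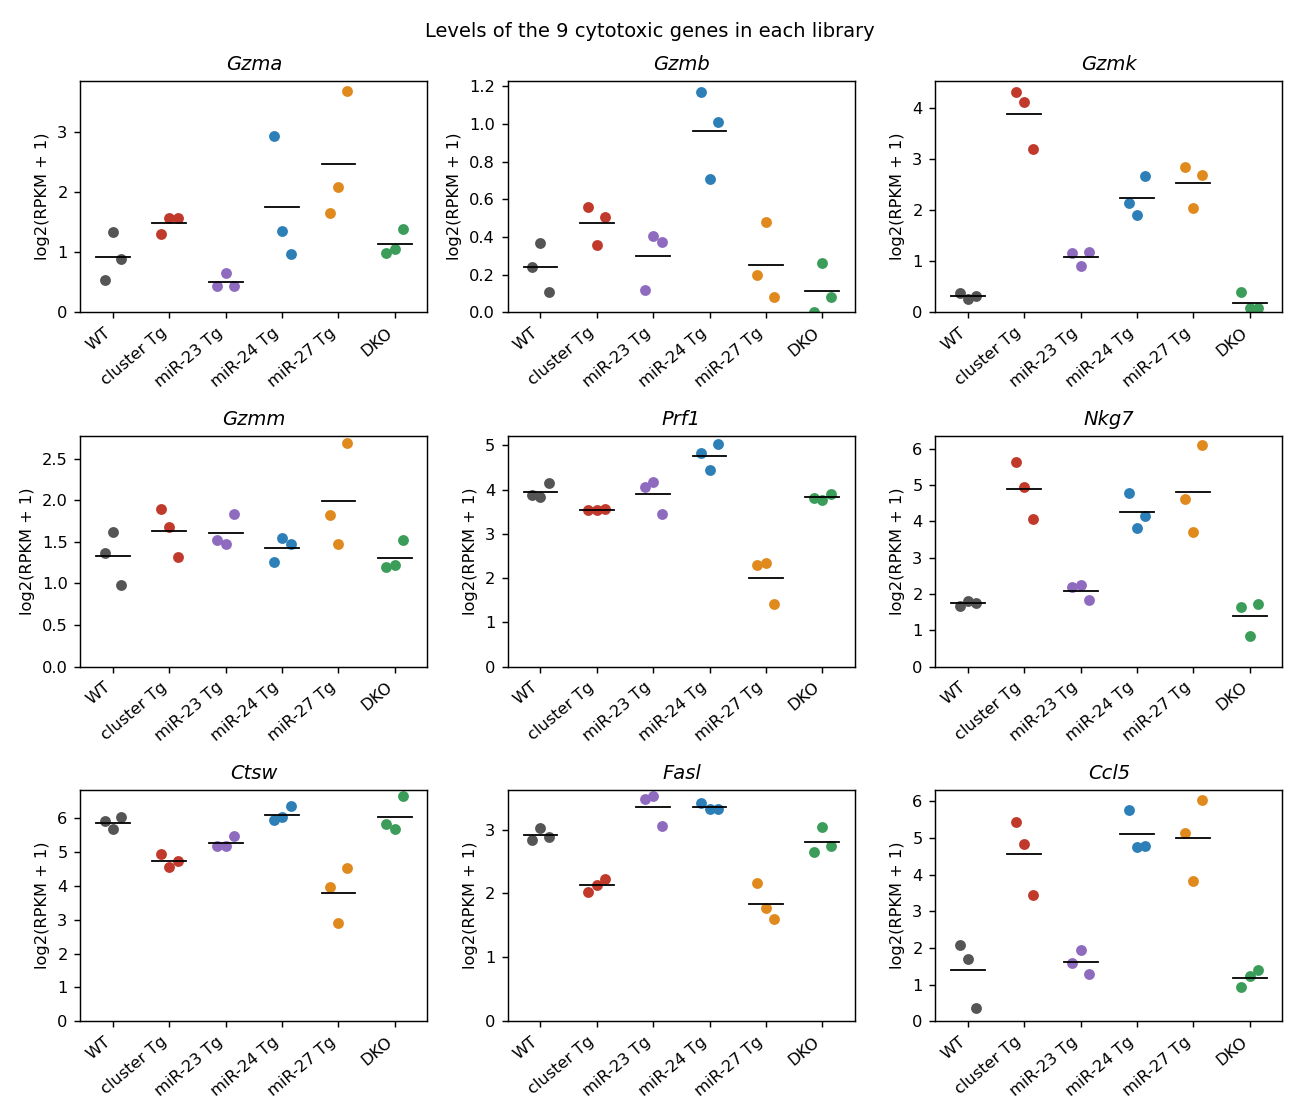
Levels of the 9 genes as log2(RPKM + 1), with 1 point per library by genotype and a black line at the mean of the 3 libraries. Gzmk, Nkg7 and Ccl5 are high in the cluster, miR-24 and miR-27 transgenics, while Prf1, Ctsw and Fasl are low in miR-27 Tg; DKO points overlap WT points in all 9 panels.

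Cells with the whole cluster over-expressed had more Gzmk, Nkg7 and Ccl5 mRNA and less Ctsw and Fasl mRNA than WT. Of 8 tested members 3 rose and 2 fell, 5 in all, where 8.48% of all tested genes were called (5.63% higher and 2.85% lower). The median log2 change of the tested members was 0.43, against 0 over all tested genes. This median joins members that moved in opposite directions.

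Granzyme K is a tryptase-like granzyme of memory T cells. Its RPKM was 0.2996, 0.200 and 0.246 in WT replicates 1 to 3 and 18.91, 16.32 and 8.116 in cluster Tg. All 3 cluster Tg libraries were above all WT libraries, and their mean was 58.1 times the WT mean, where the WT values rest on 3 to 4 reads each. The fitted log2 change was 3.55 ± 0.28 (SE), adjusted p = 1.02e-05.

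Nkg7 had 2.17, 2.506 and 2.379 RPKM in WT and 49.24, 29.78 and 15.77 in cluster Tg. The groups did not overlap, and the ratio of the means was 13.4. Its log2 change was 3.14 ± 0.50, adjusted p = 0.00139. Ccl5 had 3.231, 2.273 and 0.295 RPKM in WT, the last on 2 reads, and 42.37, 27.36 and 9.817 in cluster Tg. Again every cluster Tg library exceeded every WT library, with a log2 change of 3.18 ± 0.59, adjusted p = 0.00361.

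Of the genes that were lower, Fasl had 6.112, 7.174 and 6.365 RPKM in WT and 3.077, 3.382 and 3.696 in cluster Tg. These groups stood well apart, and the WT mean was 1.94 times the cluster Tg mean. The log2 change was -0.78 ± 0.16, adjusted p = 0.00656. Ctsw had 59.56, 50.0 and 64.24 RPKM in WT and 29.70, 22.46 and 25.61 in cluster Tg, with no overlap. Its log2 change was -1.13 ± 0.33, adjusted p = 0.0497, close to the threshold. The call was lost in 15 of the 18 fits that leave out 1 library, each WT and cluster Tg library among them, and over all alternatives the adjusted p ran from 0.00159 to 0.155. Prf1 had 10.53, 10.58 and 10.82 RPKM in cluster Tg against 13.72, 13.21 and 16.74 in WT. The values did not overlap, but the log2 change of -0.41 (95% interval -0.92 to 0.10) did not pass, adjusted p = 0.388.

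The 3 cluster Tg libraries differed from each other in the genes that rose and less in Prf1, Fasl and Ctsw. The highest library was 2.33 times the lowest for Gzmk, 3.12 times for Nkg7 and 4.32 times for Ccl5, each time with replicate 1 highest and replicate 3 lowest. The same ratio was 1.03 for Prf1, 1.2 for Fasl and 1.32 for Ctsw. Cd8a, a chain of the CD8 co-receptor, had 11.23, 6.99 and 3.29 RPKM in cluster Tg replicates 1 to 3, a ratio of 3.42, and the antigen-experienced marker S100a4 had 224.5, 141.3 and 92.34. The hairpins fell in this order too: Mir23a had 176400, 64700 and 32830 RPKM, Mir27a 172300, 67410 and 35500, and Mir24-2 70490, 26690 and 16950. By contrast, Mir24-2 was lowest in miR-24 Tg replicate 1 (13890) and Mir27a in miR-27 Tg replicate 3 (27980), the libraries of those genotypes with most Nkg7 and Ccl5. The part of transgene level or of other cells in this order was not tested. Cd4 had a ratio of 1.03.

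Over-expression of miR-24 alone came with higher Ccl5, Nkg7 and Gzmk and with no lower member. Of 8 tested members 3 rose and 0 fell, where 3.59% of all tested genes were called; 5 members had an unadjusted p under 0.05, against 14.4% of all tested genes, and the median log2 change was 0.82 against 0.01 over all tested genes. Ccl5 had 52.83, 26.20 and 26.25 RPKM in miR-24 Tg replicates 1 to 3, all above the WT maximum of 3.231. Its log2 change was 3.71 ± 0.59, adjusted p = 0.00286. Nkg7 had 26.63, 13.11 and 16.80 RPKM, and Gzmk had 3.396, 2.762 and 5.361. Neither gene overlapped WT. The log2 change was 2.51 ± 0.50 for Nkg7 (adjusted p = 0.0132) and 1.92 ± 0.28 for Gzmk (adjusted p = 0.00188). The Nkg7 call was lost without WT replicate 1, WT replicate 3 or miR-24 Tg replicate 1, with adjusted p up to 0.0739.

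Perforin was highest in this genotype. Prf1 had 27.36, 20.66 and 31.84 RPKM in miR-24 Tg, every library above the WT maximum of 16.74, at 1.83 times the WT mean. The log2 change of 0.81 ± 0.24 (95% interval 0.31 to 1.32) missed the threshold, adjusted p = 0.0785. Fasl, the member with 3 letter matches for miR-24, had 9.612, 8.972 and 9.007 RPKM, above all WT libraries, and its log2 change of 0.44 (95% interval 0.10 to 0.77) was not called, adjusted p = 0.179. Ctsw had 60.42, 64.34 and 81.29 RPKM and overlapped WT.

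Granzyme B, the protease best known for starting apoptosis in target cells, was low throughout. It had 1.25, 0.633 and 1.018 RPKM in miR-24 Tg, from 44, 17 and 27 reads, and 0.182, 0.291 and 0.080 in WT, from 5, 9 and 2 reads. The miR-24 Tg libraries were above every library of the other 5 genotypes, whose highest value was 0.473 in cluster Tg. The share of all genes set apart in this way was not computed. In the fit with no filter on low values the log2 change was 0.72 ± 0.13, adjusted p = 0.00917. In that fit Gzmb was not called in the other 4 comparisons with WT, with adjusted p from 0.428 to 1. The share of all genes called in the fit with no filter is not given here. Gzmb was below the filter in the main fit. Its value was listed at 0 in 1 library, DKO replicate 1.

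Over-expression of miR-27 alone combined a rise of Ccl5, Nkg7 and Gzmk with a fall of Prf1, Ctsw and Fasl. Of 8 tested members 3 rose and 3 fell, 6 in all, where 8.95% of all tested genes were called (5.77% higher and 3.18% lower). The median log2 change of the members was 1.11, against 0.03 over all tested genes. This median too joins members that moved in opposite directions, and it was 0.63 without replicate 3 of miR-27 Tg and of DKO. The miR-27 Tg genotype held the lowest mean of each of the 3 genes that fell.

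Prf1 had 3.931, 4.041 and 1.652 RPKM in miR-27 Tg against 13.21 to 16.74 in WT. The highest miR-27 Tg library was far below the lowest WT library, and the WT mean was 4.54 times the miR-27 Tg mean. The log2 change was -1.94 ± 0.24, adjusted p = 0.000276. Ctsw had 14.76, 6.447 and 22.23 RPKM against 50.0 to 64.24 in WT, with a log2 change of -2.07 ± 0.33, adjusted p = 0.00183. Fasl had 3.477, 2.405 and 2.022 RPKM against 6.112 to 7.174, with a log2 change of -1.07 ± 0.16, adjusted p = 0.00103. No library of these groups overlapped.

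Ccl5 had 34.30, 13.28 and 64.12 RPKM in miR-27 Tg, and Nkg7 had 23.51, 11.97 and 67.74. Replicate 3, the library that stood apart, was the highest for both genes, and replicate 2 the lowest, still above all WT libraries. The log2 change was 3.61 ± 0.59 for Ccl5 (adjusted p = 0.00197) and 3.06 ± 0.50 for Nkg7 (adjusted p = 0.00221). Gzmk had 6.183, 3.131 and 5.433 RPKM, with a log2 change of 2.21 ± 0.28, adjusted p = 0.000342.

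Without these 2 libraries, replicate 3 of miR-27 Tg and of DKO, all 6 members called in miR-27 Tg were called in the same direction. The log2 change was then 3.10 for Ccl5, 2.41 for Nkg7, 2.13 for Gzmk, -1.63 for Prf1, -2.44 for Ctsw and -0.95 for Fasl. Calls over all tested genes rose with these libraries left out, to 20.0% in miR-27 Tg, to 17.5% in miR-24 Tg and to 29.1% in cluster Tg. The members called then numbered 6, 4 and 5 of 8. In a fit of the miR-27 Tg and WT libraries alone, 1 member was called in miR-27 Tg (Gzmk), along with 0.387% of all tested genes, and the adjusted p of the other 5 lay between 0.0813 and 0.151.

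Gzma, a granzyme that cleaves after basic residues, varied widely between libraries. It had 2.131, 3.223 and 11.85 RPKM in miR-27 Tg, 6.589, 1.539 and 0.949 in miR-24 Tg, and 0.457, 1.51 and 0.86 in WT. Replicate 3 of miR-27 Tg and replicate 1 of miR-24 Tg were far above the rest of their groups. All miR-27 Tg libraries were above WT, but the log2 change of 1.55 ± 0.49 was not called, adjusted p = 0.0669, and over the 6 genotypes the adjusted p was 0.0824. The other Gzma libraries ran from 1.466 to 1.962 in cluster Tg, from 0.353 to 0.582 in miR-23 Tg and from 0.980 to 1.601 in DKO.

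Gzmm, a granzyme known from NK cells and innate-like T cells, showed no call in any comparison, and its adjusted p over the 6 genotypes was 0.317. It ran from 0.982 to 2.062 RPKM in WT, from 1.498 to 2.71 in cluster Tg, from 1.776 to 2.566 in miR-23 Tg, from 1.40 to 1.918 in miR-24 Tg, from 1.77 to 5.457 in miR-27 Tg and from 1.289 to 1.862 in DKO. Every genotype overlapped WT.

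**Figure D2:**
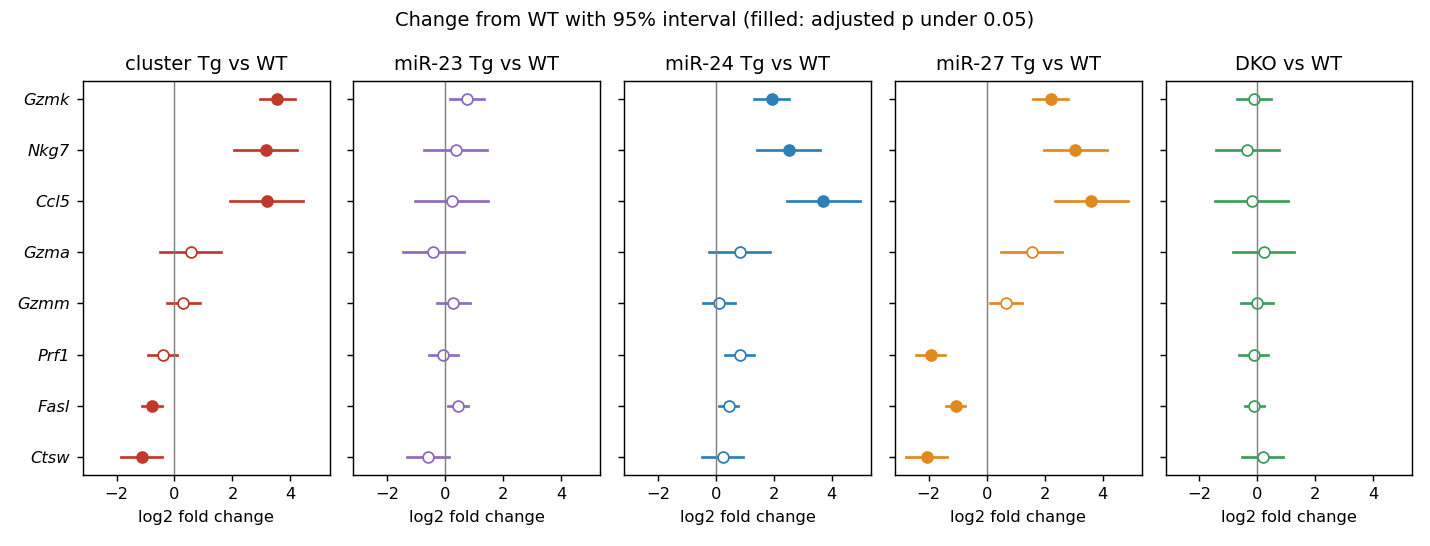
Log2 change from WT of the 8 tested genes in each of the 5 other genotypes, with 95% intervals as lines; filled points have an adjusted p under 0.05. The 3 upper genes are filled in the cluster, miR-24 and miR-27 transgenics, the 3 lower genes are filled in miR-27 Tg, and no point is filled in miR-23 Tg or DKO.

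Over-expression of miR-23 gave no called member. By limma 0 of 8 members were called, where 0.045% of all tested genes were, and 2 members had an unadjusted p under 0.05, Gzmk and Fasl, against 7.63% of all tested genes. With libraries weighted by their spread 2 members were called, where 12.7% of all tested genes were. Gzmk had 1.281, 1.228 and 0.867 RPKM in miR-23 Tg replicate 1, column 3 and column 4, above all WT libraries at 4.53 times the WT mean. The log2 change of 0.76 had a 95% interval of 0.17 to 1.35, adjusted p = 0.471. Fasl had 7.313, 10.18 and 10.49 RPKM, also above WT, with a log2 change of 0.44 (95% interval 0.10 to 0.78) and an adjusted p of 0.471. Ctsw had 43.47, 35.38 and 35.2 RPKM, below all WT libraries, with a log2 change of -0.59 (95% interval -1.31 to 0.12). Nkg7 had 2.604, 3.556 and 3.798 RPKM, above all WT libraries but by 1.41 times in the mean, and Ccl5 had 1.454, 1.996 and 2.876, within the WT range. Prf1 had 9.926, 15.67 and 16.93 RPKM.

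Loss of both copies of the cluster gave no called member either. By limma 0 of 8 members were called in DKO, where 0% of all tested genes were, and 0 members had an unadjusted p under 0.05, against 0.73% of all tested genes. No other fit called a member, the fit without DKO replicate 3 included. Prf1 had 12.97, 12.61 and 13.83 RPKM, with a 95% interval of the log2 change from -0.64 to 0.38. Fasl had 5.282, 7.252 and 5.664 RPKM (interval -0.44 to 0.24), and Ctsw 55.47, 50.6 and 99.61 (interval -0.53 to 0.89), with the highest value in the library that stood apart. Nkg7 had 2.109, 0.787 and 2.304 RPKM (interval -1.43 to 0.74), Ccl5 0.897, 1.343 and 1.649 (interval -1.46 to 1.05), and Gzmk 0.312, 0.068 and 0.061, from 5, 1 and 1 reads. For each of the 9 genes the DKO libraries overlapped WT. The intervals of Nkg7, Ccl5 and Gzma (-0.84 to 1.27) each reach beyond a log2 change of 1 in a direction.

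The cluster Tg cells could be set against the single transgenics and DKO directly. Against DKO, 5 of 8 members were called, where 11.3% of all tested genes were: Gzmk (log2 3.68), Nkg7 (3.49) and Ccl5 (3.38) higher, Ctsw (-1.31) and Fasl (-0.68) lower. Against miR-23 Tg, 4 of 8 were called, where 10.3% of all tested genes were: Ccl5 (2.96), Gzmk (2.79) and Nkg7 (2.79) higher and Fasl (-1.22) lower. The Ctsw call against DKO was lost without any 1 of the cluster Tg libraries or DKO replicate 3, and the Fasl call without cluster Tg replicate 1 or DKO replicate 2, with adjusted p up to 0.0904 and 0.0669. Without DKO replicate 3 and miR-27 Tg replicate 3 together, 5 of 8 members were called against DKO, where 27.6% of all tested genes were. These comparisons share the cluster Tg libraries with each other and with the comparison with WT.

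Gzmk was higher with the whole cluster than with any single member. It exceeded miR-24 Tg by a log2 of 1.63 ± 0.28 (adjusted p = 0.00696) and miR-27 Tg by 1.35 ± 0.28 (adjusted p = 0.016), and its cluster Tg libraries (8.116 to 18.91 RPKM) lay above all others. How many of all tested genes lay apart in this way was not computed. The difference from miR-27 Tg was lost without cluster Tg replicate 1 or replicate 2. In fits of only the pair of genotypes compared, neither difference was called (adjusted p = 0.0607 and 0.498). Nkg7 and Ccl5 showed no called difference between these genotypes. For cluster Tg against miR-27 Tg the log2 difference of Nkg7 was 0.08 ± 0.50 (SE) and the 95% interval of Ccl5 was -1.69 to 0.82, and against miR-24 Tg the intervals were -0.45 to 1.72 and -1.78 to 0.73.

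Perforin separated the genotypes in another order. Prf1 was lower in cluster Tg than in miR-24 Tg by a log2 of -1.23 ± 0.24 (adjusted p = 0.0166) and higher than in miR-27 Tg by 1.53 ± 0.24 (adjusted p = 0.00412). Its mean was 3.208 RPKM in miR-27 Tg, 10.64 in cluster Tg and, at the top, 26.62 in miR-24 Tg, and no libraries of these 3 genotypes overlapped. The share of all tested genes that did not overlap between these genotypes was not computed. In all, 4 of 8 members were called between cluster Tg and miR-24 Tg, where 2.22% of all tested genes were, with Fasl (-1.22) and Ctsw (-1.37) the others that were lower. The Ctsw call (adjusted p = 0.0475) was kept in only 3 of the 18 fits that leave out 1 library and in 6 of 11 other settings. It was lost without any 1 of the cluster Tg, miR-24 Tg or WT libraries, among others, with adjusted p up to 0.173. The Prf1 call was lost without cluster Tg replicate 1 or 2 or miR-24 Tg replicate 1 or 3, with adjusted p up to 0.0807. Between cluster Tg and miR-27 Tg, 2 of 8 members were called, Gzmk and Prf1, where 3.79% of all tested genes were. A fit of these 6 libraries alone called neither, with an adjusted p of 0.357 for Prf1, and without the 2 libraries that lay apart 3 of 8 were called, where 11.4% of all tested genes were.

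The single transgenics miR-27 Tg and miR-24 Tg differed in Prf1, Ctsw and Fasl, in a comparison that shares the miR-27 Tg libraries with the one against WT. Of 8 members 3 were called, where 13% of all tested genes were, and all 3 were lower in miR-27 Tg: Prf1 by a log2 of -2.75 ± 0.24 (adjusted p = 1.77e-05), Ctsw by -2.31 ± 0.33 (adjusted p = 0.000549) and Fasl by -1.51 ± 0.16 (adjusted p = 5.37e-05). The 2 groups did not overlap for any of these genes, and the share of all tested genes without overlap was not computed for this pair. Without the 2 libraries that lay apart 3 of 8 were called, where 26.8% of all tested genes were, and in a fit of the 2 genotypes alone none of the 3 was, with adjusted p from 0.0689 to 0.126. For Gzmk, Nkg7 and Ccl5 no difference was called, with 95% intervals of -0.30 to 0.88, -0.53 to 1.63 and -1.35 to 1.16.

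The make-up of the 9 genes differed between genotypes. Summed RPKM ran from 79.2 to 92.2 in WT, from 77.7 to 158 in cluster Tg, from 140 to 189 in miR-24 Tg and from 46.7 to 181 in miR-27 Tg. Gzmk, Nkg7 and Ccl5 together made up 5.33% ± 1.87 of the sum in WT (SD, n = 3), 59.1% ± 13.9 in cluster Tg, 33.8% ± 8.63 in miR-24 Tg and 69.1% ± 7.69 in miR-27 Tg. Without replicate 3 the miR-27 Tg libraries stood at 70.3% and 60.8%. The 3 genes made up 9.23% ± 1.37 in miR-23 Tg and 3.42% ± 0.669 in DKO.

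**Figure D3:**
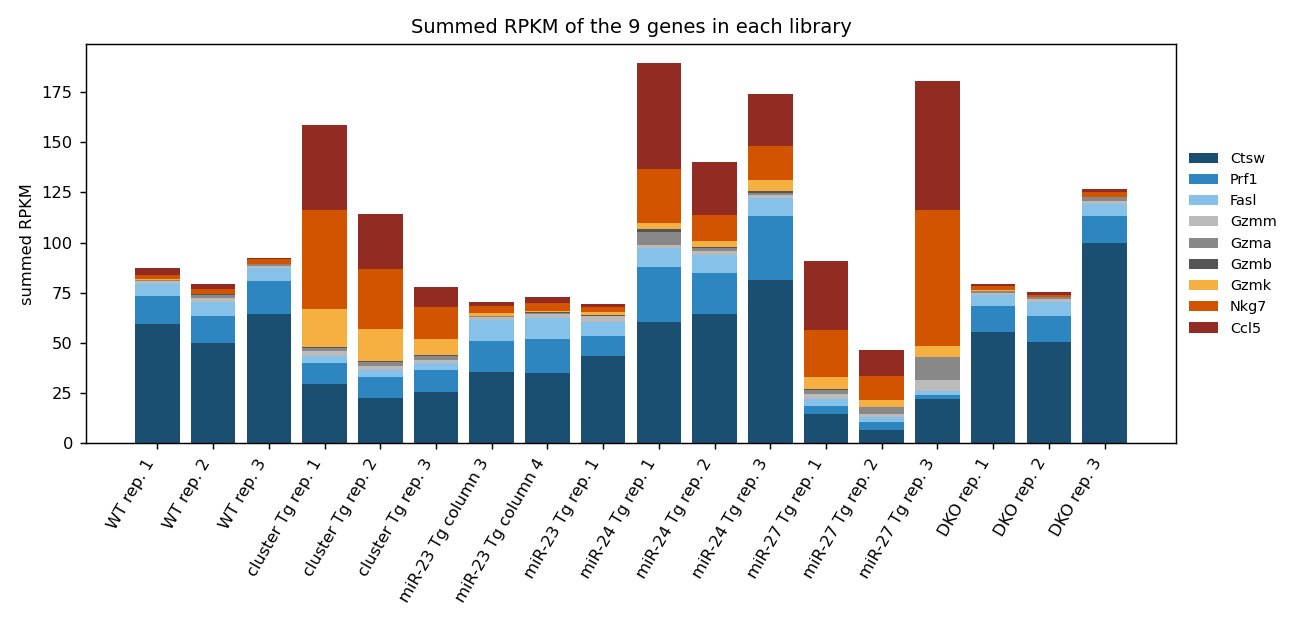
Summed RPKM of the 9 genes in each of the 18 libraries, stacked by gene. Ctsw and Prf1 (blue) fill most of each WT, miR-23 Tg and DKO bar, and Nkg7, Ccl5 and Gzmk (warm colours) fill 43.4% to 69.7% of each cluster Tg bar and 60.8% to 76.0% of each miR-27 Tg bar.

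Genes around the members were taken from lists chosen by their roles. Among 17 genes of granule processing and release, 16 of which were tested, 3 rose and 0 fell in cluster Tg, 4 rose and 0 fell in miR-24 Tg, and 3 rose and 1 fell in miR-27 Tg. Among all tested genes 5.63%, 2.32% and 5.77% rose in these comparisons and 2.85%, 1.26% and 3.18% fell, and the counts of the other lists stand against the same shares. The median log2 change of the list was 0.27, 0.38 and 0.04. Syntaxin 11 (Stx11), which serves granule fusion, rose in all 3 genotypes, by a log2 of 1.58, 1.14 and 0.98. Lamp2, a lysosomal membrane protein, rose by 0.72, 0.81 and 0.54. Sytl2, a Rab27 effector that tethers granules, rose by 0.82 with the cluster and by 1.14 with miR-24, and Lamp1 by 0.37 in miR-27 Tg. Cst7 encodes cystatin F, an inhibitor of the cathepsins that activate granzymes. It rose by 1.57 in miR-24 Tg (adjusted p = 0.00457) and fell by 1.07 in miR-27 Tg (adjusted p = 0.0231), with 31.73 to 48.47 RPKM in miR-24 Tg, 9.69 to 15.77 in WT and 3.34 to 8.26 in miR-27 Tg.

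Of 5 serpins that inhibit granzymes and related proteases, 4 were tested. Serpinb6b rose in miR-27 Tg (0.60), cluster Tg (1.00) and miR-24 Tg (1.27), and Serpinb1a rose in miR-27 Tg (1.34). Of 6 further granzymes only Gzmc was tested, with no call in these 3 comparisons. Of 12 genes of the death receptor pathway, all tested, 1 rose in cluster Tg and 0 were called in miR-24 Tg and miR-27 Tg. Fas, the receptor of Fas ligand, had 27.01 RPKM in WT and 26.55, 26.28 and 22.96 in the cluster, miR-24 and miR-27 transgenics, the last with a range of 16.26 to 35.66 and its highest value in replicate 3. In the limma fit without replicate 3 of miR-27 Tg and of DKO, Fas was called lower in miR-27 Tg (log2 -0.67, adjusted p = 0.000498). There 1 of the 12 genes rose and 2 fell, where 11.4% and 8.58% of all tested genes did.

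Of 7 cytokine and chemokine genes of killer cells, 5 were tested, and 2, 3 and 1 rose in the cluster, miR-24 and miR-27 transgenics. Ifng, the gene of interferon gamma, rose in cluster Tg (1.86) and miR-24 Tg (2.06), Xcl1 rose in miR-24 Tg (2.42), and Ccl4 rose in miR-27 Tg (1.35). Ifng lay below 1 RPKM in all WT, miR-23 Tg and DKO libraries and passed the filter only through the cluster, miR-24 and miR-27 transgenics. Klf13, a transcription factor known for acting on Ccl5 late after T cell activation, had 97.22 RPKM in WT and 99.07, 86.08 and 81.21 in the 3 genotypes, with no call. None of this list fell in these genotypes.

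Of 19 regulators of the cytotoxic programme, 17 were tested, and 5, 3 and 1 rose in the cluster, miR-24 and miR-27 transgenics, with 0 lower; the 1 of 17 in miR-27 Tg is near the 5.77% of all tested genes that rose there. Tbx21 encodes T-bet, a T-box factor that drives type 1 and cytotoxic genes. It had 0.3197 RPKM in WT and rose by 1.70 in cluster Tg (adjusted p = 0.00105), 1.63 in miR-24 Tg (adjusted p = 0.00319) and 1.34 in miR-27 Tg (adjusted p = 0.00591). Tbx21 lay below 1 RPKM in all WT, miR-23 Tg and DKO libraries. It passed the filter only through the genotypes in which it was called. Eomes, a relative of Tbx21, rose in cluster Tg (1.23), as did Id2 (1.03), Hopx (0.87) and Bcl6 (0.86). Stat4 (0.68) and Bcl6 (0.65) rose in miR-24 Tg.

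The 250 bases before the annotated start were searched for the T-box core GGTGTGA and the RUNX core TGTGGT on either strand, since T-box and RUNX factors are known regulators of cytotoxic genes. The promoters come from RefSeq (GRCm38.p6), where those of Ccl5 and Ctsw were not matched. The T-box core occurred 75 bases before the start of Gzmk, 13 before that of Nkg7 and 189 before a second start of Gzmm, and in 3.3% of 32851 promoters. The RUNX core occurred in those of Gzma, Gzmb, Gzmm, Prf1 and Nkg7, and in 14.0% of promoters. Neither occurred before Fasl. The promoters of Gzmk (minus strand, chr13:113180966-113181215) and Nkg7 (plus strand, chr7:43436888-43437137) are shown because these genes rose together, with the matches in capitals. A letter match does not show binding.
Gzmk: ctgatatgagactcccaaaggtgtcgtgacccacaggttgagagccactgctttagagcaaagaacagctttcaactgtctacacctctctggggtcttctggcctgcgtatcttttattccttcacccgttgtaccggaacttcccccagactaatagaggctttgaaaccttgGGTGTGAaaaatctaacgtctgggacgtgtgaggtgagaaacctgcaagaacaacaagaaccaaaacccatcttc
Nkg7: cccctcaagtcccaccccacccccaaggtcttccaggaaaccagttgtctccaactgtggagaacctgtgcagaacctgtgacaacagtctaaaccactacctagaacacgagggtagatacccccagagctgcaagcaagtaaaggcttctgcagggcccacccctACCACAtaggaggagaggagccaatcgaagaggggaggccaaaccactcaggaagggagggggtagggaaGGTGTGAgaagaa

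Markers of other cells moved with the members, and in bulk RNA more cells of a type and more RNA per cell cannot be told apart. The summed CD8 markers (Cd8a and Cd8b1) ran from 17.5 to 20.6 RPKM in WT, from 32.7 to 50.3 in cluster Tg, from 29.7 to 46.5 in miR-24 Tg and from 31.9 to 78.8 in miR-27 Tg. Cd8a rose in all 3 genotypes, by a log2 of 2.43, 1.83 and 2.25, from 0.21 to 0.53 RPKM in WT, and Cd8b1 rose in miR-27 Tg by 1.22. Cd8a lay below 1 RPKM in all WT, miR-23 Tg and DKO libraries and passed the filter only through these 3 genotypes. In miR-23 Tg the sum was 7.95 to 12.3 RPKM and in DKO 20.4 to 30.3. Most of the sum was Cd8b1, with 17.34 to 20.19 RPKM in WT, 7.689 to 11.83 in miR-23 Tg and 20.07 to 30.04 in DKO. Cd8a overlapped WT in both genotypes, at 0.26 to 0.54 RPKM in miR-23 Tg and 0.28 to 0.35 in DKO. The sum therefore follows Cd8b1, and the 2 markers differed in miR-23 Tg. The part of CD8 T cells in the results was not tested.

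The 11 NK cell markers, 4 of them tested, summed to 11.5 to 16.7 RPKM in WT and 11.6 to 18.4 in cluster Tg, so that these groups overlapped, and 0 were called there. In miR-24 Tg they summed to 44.4 to 68.5 RPKM, and Klrd1 (1.69), Klrk1 (1.45) and Fcgr3 (1.27) rose. Klrd1, which encodes CD94 of a lectin-like NK receptor, had 41.86, 35.16 and 39.61 RPKM in miR-24 Tg against 9.40 to 14.52 in WT. In the fit with no filter on low values, Klrb1c (0.92, adjusted p = 0.0191), Klre1 (0.80, adjusted p = 0.00398) and Itga2 (0.81, adjusted p = 0.0321) also rose in miR-24 Tg, and Ncr1 (0.35, adjusted p = 0.601), Klra4, Klra7 and Klra8 were not called. That fit covers more genes, and the share of them called is not given here. The levels of the defining NK receptor genes were low: Ncr1 had 1.203 RPKM in miR-24 Tg replicate 1 and at most 0.614 in all other libraries, and Klrb1c at most 2.032. In miR-27 Tg the sum was 18.8 to 31.6 RPKM and Tyrobp, an adaptor shared with myeloid cells, rose by 2.69. The part of NK cells was not tested.

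B cell and myeloid markers also moved. The 9 B cell markers summed to 5.1 to 6.56 RPKM in WT, 18.6 to 38.1 in cluster Tg, 19.8 to 84.9 in miR-24 Tg and 29.0 to 145 in miR-27 Tg. Of 8 tested, 0, 4 and 8 rose in the cluster, miR-24 and miR-27 transgenics. The 9 measured myeloid and neutrophil markers summed to 9.69 to 20.4 RPKM in WT and 19.2 to 32.7 in cluster Tg. They summed to 123.2, 43.52 and 13.15 in miR-24 Tg replicates 1 to 3, the last within the WT range. In miR-27 Tg replicates 1 to 3 they summed to 37.44, 67.16 and 602, all above every WT and cluster Tg library. The highest value was in the library that lay apart. In miR-27 Tg Lyz2, Itgam, S100a8 and S100a9 rose. S100a8 was at 0 in all WT libraries and at most 0.195 RPKM in DKO. Lyz2 reached at most 0.918 RPKM in WT and 0.984 in DKO. Both thus passed the filter only through transgenic libraries. S100a8 had 283.6 RPKM in miR-27 Tg replicate 3 and 46.25 in miR-24 Tg replicate 1, the same libraries in which Gzma was high. The genes most like Gzma over the 18 libraries were Ifitm6 (r = 0.927), H2-DMb1 (0.926) and Ifitm1 (0.922). The part of these cells was not tested.

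Markers of antigen experience rose beside Gzmk, Nkg7 and Ccl5. Of 10, all tested, 10, 8 and 7 rose in the cluster, miR-24 and miR-27 transgenics, and 0 fell. Their sum was 62.4 to 81.5 RPKM in WT, 394 to 798 in cluster Tg, 194 to 496 in miR-24 Tg and 186 to 581 in miR-27 Tg, against 55.4 to 72.4 in miR-23 Tg and 32.0 to 48.3 in DKO. S100a6 rose by a log2 of 3.58 in cluster Tg, 2.49 in miR-24 Tg and 3.30 in miR-27 Tg, and the chemokine receptor gene Cxcr3 by 3.25, 2.71 and 2.16. Of 6 naive markers 2 rose in cluster Tg, among them S1pr1 by 0.58, and 0 were called in miR-24 Tg or miR-27 Tg. Of 8 genes of CD4 T cell identity, 0 were called in cluster Tg, while Cd5 fell by 0.62 in miR-24 Tg and rose by 0.54 in miR-27 Tg. The part of antigen-experienced cells was not tested.

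**Figure D4:**
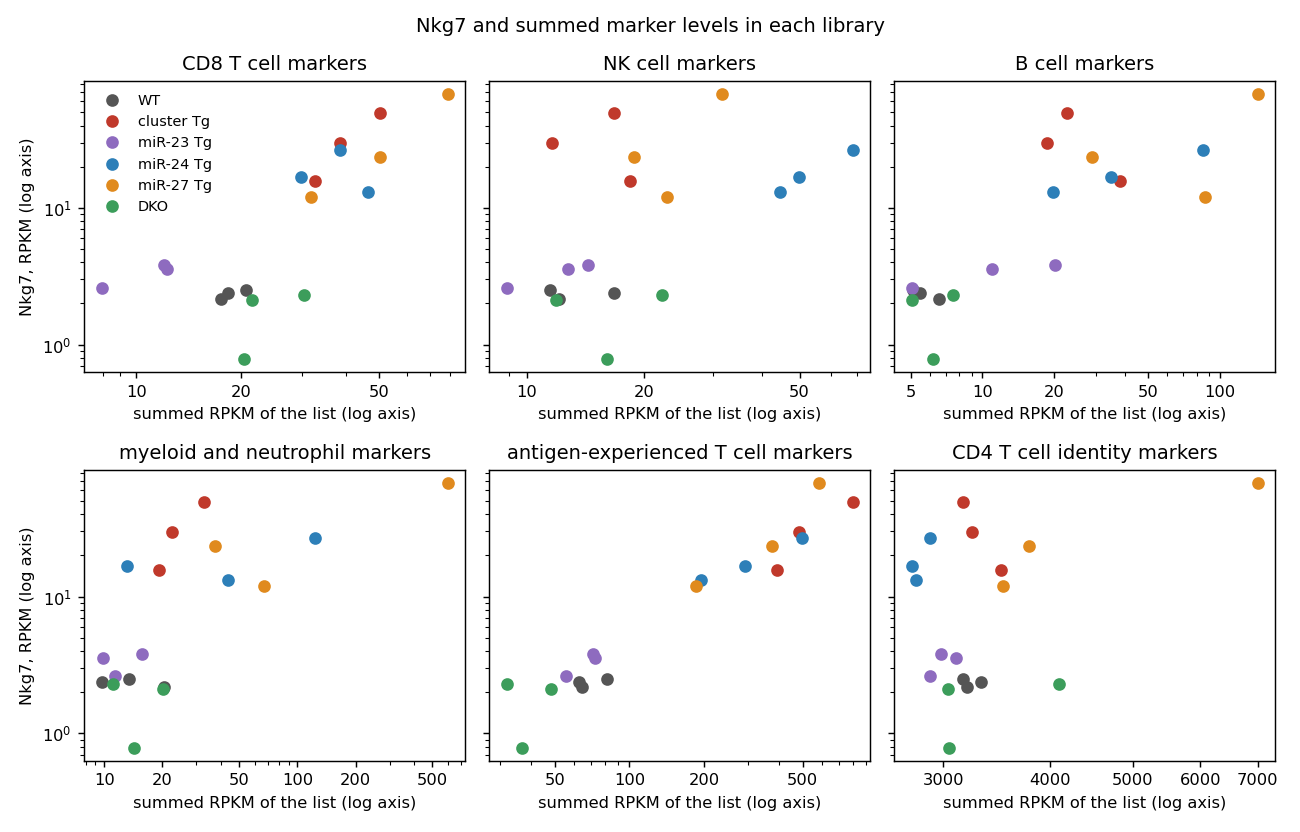
Nkg7 in RPKM against the summed RPKM of 6 marker lists, both on log axes, with 1 point per library coloured by genotype. The the cluster, miR-24 and miR-27 transgenics points lie above and to the right of WT for the antigen-experienced markers (186 to 798 against 62.4 to 81.5), while the cluster Tg points overlap WT along the NK cell axis (11.6 to 18.4 against 11.5 to 16.7).

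Of the remaining lists, Cd163l1, a marker of gamma-delta T cells, rose in cluster Tg (2.35) and miR-27 Tg (2.88), where Blk (1.88) rose too, of 3 tested genes of gamma-delta and innate-like T cells. The 6 genes of this list together summed to 0.649 to 0.859 RPKM in WT and 0.567 to 0.948 in DKO. Each therefore lay below 1 RPKM there, and the tested ones passed the filter only through transgenic libraries. Itgam rose in cluster Tg (2.17). Dntt, of 2 tested thymocyte genes, rose in miR-24 Tg (1.06), miR-27 Tg (1.15) and cluster Tg (1.43). Of 5 regulatory T cell genes, Ikzf2 rose in cluster Tg (2.04), Foxp3 (1.21) and Il2ra (1.25) rose in miR-24 Tg, and 0 were called in miR-27 Tg. No gene of the dendritic cell or of the mast cell and basophil list passed the filter.

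In a fit without replicate 3 of miR-27 Tg and of DKO, chosen after the data were seen, list genes called in miR-27 Tg kept their direction and their call, except 2 that were not called, the antigen-experienced marker Anxa1 (adjusted p = 0.0883) and the B cell marker Bank1 (adjusted p = 0.0582). Among all tested genes 11.4% then rose and 8.58% fell in miR-27 Tg. Cst7 fell by 1.36, Stx11 rose by 1.07, Tbx21 by 1.40, Cd8a by 2.31 and S100a6 by 2.75, while S100a8 rose by 2.97 in place of 4.70. The antigen-experienced markers that rose numbered 7 of 10, the B cell markers 7 of 8 and the myeloid markers 4 of 5. Of the 17 regulators 11, 9 and 5 then rose in the cluster, miR-24 and miR-27 transgenics and 0, 2 and 0 fell, where 15.6%, 9.38% and 11.4% of all tested genes rose. In miR-24 Tg 4 of 5 myeloid markers, 6 of 8 B cell markers and 2 of 6 naive markers rose in this fit, and in cluster Tg 4 of 8 B cell markers rose.

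The genes most like each member were found by Pearson's r of log2(RPKM + 1) over the 18 libraries, which share genotypes within groups and differ in depth, as a description. Nkg7 was most like S100a6 (r = 0.973), Fut7 (0.958) and S100a4 (0.956), and Ccl5 was most like Nkg7 (0.953), Tcn2 (0.949) and Cxxc5 (0.939). Gzmk was most like Endod1 (0.956), Gpm6b (0.955) and Alcam (0.952). For the genes that fell, Prf1 was most like Dse (0.947), Abcd3 (0.941) and Lztr1 (0.929), Ctsw most like Zfp869 (0.918), Poldip2 (0.908) and E2f5 (0.897), and Fasl most like Snx14 (0.91), Tbc1d12 (0.906) and Nipsnap3b (0.897). Among the genes most like Gzmm were Fen1 (0.897) and Ptp4a2 (0.895).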

How the data were processed

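RNA of the sorted cells was made into TruSeq libraries from total RNA and sequenced on an Illumina HiSeq, per the labels' protocols. The authors deposited a single table of RPKM values with 23953 gene rows for 18 libraries. The submitters' processing notes name STAR 2.2.0c, HOMER and the build mm9. Which gene models were used, whether strand was used and how reads common to several genes were counted was not given in the sources used here, so paralogs such as the granzymes may share reads. Where a symbol occurred in more than 1 row (2 rows), the row of higher mean was kept. The 2 miR-23 Tg columns of the same name differed beyond sampling noise (chi-square per degree of freedom 9.76 over 62 genes, against 19.7 and 19.1 between each and the other miR-23 Tg library, and 5.49 to 198 in other genotypes) and were counted as separate libraries, which this spread alone does not show them to be.

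A gene was tested if 3 or more libraries reached 1 RPKM (11099 genes). On log2(RPKM + 1), limma 3.58.1 under R 4.3.3 was fitted with a variance trend to all 18 libraries, with genotype as the sole term and two-sided p-values adjusted over all tested genes. The fit was tested on simulated data. Reads per value were recovered to describe precision. The alternatives were other pseudocounts, filters and scalings, library weights, separate fits, a replicate block and fits without single libraries. The members and lists were chosen with earlier results of these data known. Named were the 9 members, of each list at most the 4 called genes with the largest change per comparison with WT, markers beside a result, and the 3 genes most like each member; Klf13, Fas and Lyst were named after their values were seen. The coordinates printed are of GRCm38, not of the authors' build. Some genes that this rule names are not reported here.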

Additional observations from a re-analysis of the deposited data

How the results depend on the processing

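The 32 calls of members were recomputed under 29 other settings, 928 values in all: 861 stayed past the threshold, 67 did not, and 0 changed sign. Of the 67, Ctsw in cluster Tg gave 44 and the separate fits of the genotypes compared gave 11. In these separate fits 1 member was called in miR-27 Tg vs WT, 0 in cluster Tg vs miR-27 Tg, 0 in miR-27 Tg vs miR-24 Tg and 5 in miR-24 Tg vs WT; calls over all tested genes fell to 43, 5 and 5 in the first 3 and rose to 851 in the last. With library weights 5 members were called in miR-24 Tg vs WT, 2 in miR-23 Tg vs WT and 7 in cluster Tg vs miR-23 Tg, where calls over all tested genes rose to 2451, 1410 and 4739. At a pseudocount of 0.1, 1 member was called in cluster Tg vs miR-27 Tg. The cause was not tested. With the 2 miR-23 Tg columns of the same name averaged, a setting chosen after seeing the data, 4 members were called in cluster Tg vs WT and 3 in cluster Tg vs miR-24 Tg. Shares of all tested genes called at the pseudocount of 0.1 and with these columns averaged are not given here, so these counts stand without them.

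With each library left out in turn, the members called ranged from 4 to 5 in cluster Tg vs WT, 2 to 4 in miR-24 Tg vs WT, 6 to 7 in miR-27 Tg vs WT, 3 to 5 in cluster Tg vs DKO, 2 to 4 in cluster Tg vs miR-24 Tg, 1 to 3 in cluster Tg vs miR-27 Tg, 3 to 4 in miR-27 Tg vs miR-24 Tg, and 6 to 7 by the F test. They stayed at 4 in cluster Tg vs miR-23 Tg and at 0 in miR-23 Tg and DKO vs WT. The share of all tested genes called moved too in these fits, from 3.78% to 18.5% in cluster Tg vs WT, 1.62% to 9.21% in miR-24 Tg vs WT, 4.8% to 11% in miR-27 Tg vs WT and 14.2% to 34.3% by the F test. For cluster Tg it ran from 5.05% to 24.5% vs DKO, 0.685% to 7.04% vs miR-24 Tg, 0.928% to 7.24% vs miR-27 Tg and 4.8% to 21.8% vs miR-23 Tg. It ran from 7.63% to 17.3% in miR-27 Tg vs miR-24 Tg and from 0.00901% to 0.36% in miR-23 Tg vs WT, and was 0% in DKO vs WT. In cluster Tg vs DKO the lowest count of members came without cluster Tg replicate 1. The replicate numbers were not taken to pair the libraries, since the labels name no batch. Same-numbered libraries of different genotypes correlated in their deviations at -0.111 to 0.58, with 11 of 30 above 0.1 (median 0.0806). Of differently numbered ones 6 of 60 were above 0.1 (median -0.0382). Same-numbered libraries were thus more alike, and whether they share a batch is not said. All 3 same-numbered pairs of miR-27 Tg and DKO, which were not compared, were above 0.1 (0.214, 0.286 and 0.58). With the replicate number as a block, 5 members were called in cluster Tg vs WT, 3 in miR-24 Tg and 6 in miR-27 Tg. In DKO 0 were called, and each count was the same without the block. That fit left out miR-23 Tg columns 3 and 4, which have no replicate number, and so gives no count for miR-23 Tg. The share of all tested genes called with the block is not given here. Low reads limit Gzmb, Gzmk and Ccl5 in WT and DKO, so that ratios to these groups are imprecise.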
